A study of Mus musculus with 4 samples.

Results

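The receptors and enzymes that set cAMP in the fat cell, and with it the breakdown of stored fat, were examined in white fat of mice fed either a diet rich in fat (HFD) or one low in fat (LFD). They were 9 genes taken by name and grouped by role: the stimulating receptors Adrb1 and Adrb3, the inhibiting receptors Adora1, Adra2a, Ffar2, Hcar1 and Hcar2, the cAMP-making enzyme Adcy5 and the cAMP-degrading enzyme Pde3b. They were found on the arrays by gene name, with Hcar1 written there as Gpr81 and Hcar2 as Niacr1. All 9 were among the 17739 genes with a probe bright enough to test, and 15 of their 16 probes were tested. The mice were female C57BL/6, without any genetic change named in the sources used here. They were placed at 8 weeks of age on the HFD, which CLEA Japan sells as High fat diet 32, or on that company's standard feed CE2 as the LFD, and stayed on it for 18 weeks. Each diet had 2 arrays, and each array held RNA from adipose tissue mixed from 3 mice, so that single animals could not be seen. No fat depot is named, and the sources do not say if each replicate was a pool of its own. P-values here therefore reflect no more than the spread between samples, and that spread may be technical.

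Noradrenaline from sympathetic nerves and adrenaline from the blood act on beta-adrenergic receptors, which couple to the stimulating G protein Gs and switch on adenylyl cyclase. The cAMP made there activates protein kinase A, which phosphorylates perilipin and hormone-sensitive lipase and so starts lipolysis. Receptors coupled to the inhibiting G protein Gi hold adenylyl cyclase back in response to catecholamines, adenosine, lactate, ketone bodies or short-chain fatty acids, and insulin lowers cAMP through phosphodiesterase 3B.

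Levels are given as log2 of a probe's processed signal relative to the 75th percentile of its array, so that levels of one probe can be compared across arrays but not between genes. Between 26419 and 27938 probes were well above background on LFD replicates 1 and 2 and HFD replicate 1, which had 27246, and only 21313 on HFD replicate 2. A gene stood as called when its limma adjusted p was under 0.05 (Benjamini-Hochberg over 26057 tested probes). By that rule 1019 genes (5.74%) rose in HFD and 995 (5.61%) fell. With the array median in place of the 75th percentile these were 852 and 1334. Both HFD arrays lay on one side of both LFD arrays for 68.9% of all tested genes, above for 36.2% and below for 32.7%.

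The probes decide which piece of a transcript was read, and the sequences of those on which the results for Adrb3, Adora1, Adcy5 and Pde3b turn are shown here as the files give them, with positions in build mm9, for which no annotation was used. The Adrb3 probe (chr8:28337317-28337736) ends in the letters of a stop codon, which are in capitals. Its 60 bases are spread over 420 bases of the genome, which skips 360 bases, so that it reads spliced RNA.
Adrb3 A_51_P179442: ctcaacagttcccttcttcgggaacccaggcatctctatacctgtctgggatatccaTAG
The Adora1 probe nearest the 5′ end of the transcript (chr1:136099564-136099623) has 2 forward frames free of stop codons.
Adora1 A_51_P188845: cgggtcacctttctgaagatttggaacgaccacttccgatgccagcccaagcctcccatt
The Adcy5 probes lie end to end on chromosome 16, with 0 bases between them. The first (chr16:35299663-35299722) is one block, and the second (chr16:35299723-35302391) skips 2609 bases and so reads spliced RNA.
Adcy5 A_52_P449208: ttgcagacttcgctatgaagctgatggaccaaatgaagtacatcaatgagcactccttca
Adcy5 A_51_P199041: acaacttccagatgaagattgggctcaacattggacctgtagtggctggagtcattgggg
The Pde3b probes face opposite strands of chromosome 7 with 278 bases between them. The first (chr7:121679667-121679726) matches the reference transcript of Pde3b. The second (chr7:121679329-121679388) is named Pde3b in the files but is written in the descending direction, against that transcript, and 0 of its 3 forward frames are free of stop codons.
Pde3b A_51_P143431: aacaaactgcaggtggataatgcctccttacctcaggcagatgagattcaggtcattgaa
Pde3b A_51_P223611: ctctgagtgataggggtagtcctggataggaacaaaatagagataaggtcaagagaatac

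Of the 9 genes, 3 were higher in HFD (Ffar2, Adora1 and Adcy5, against a background of 5.74%), 1 was lower (Hcar1, background 5.61%) and 5 did not pass the test. The diets did not overlap for 7 of the 9, with HFD above LFD for 3 and below for 4, against 68.9% of all genes. Adrb1 counts here as below at its brighter probe, while at its dimmer probe HFD lay above LFD. The median log2 change of the 9 was -0.36, against 0.02 over all tested genes. Without LFD replicate 1 the counts of higher and lower genes were 1 and 0, without LFD replicate 2 they were 3 and 0, and without either HFD replicate 0 and 0 in limma. Of these 9 genes 6 to 8 had an unadjusted p under 0.05 in those 4 fits. In tissue RNA, fewer cells of a type and less RNA per cell cannot be told apart.

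**Figure D1:**
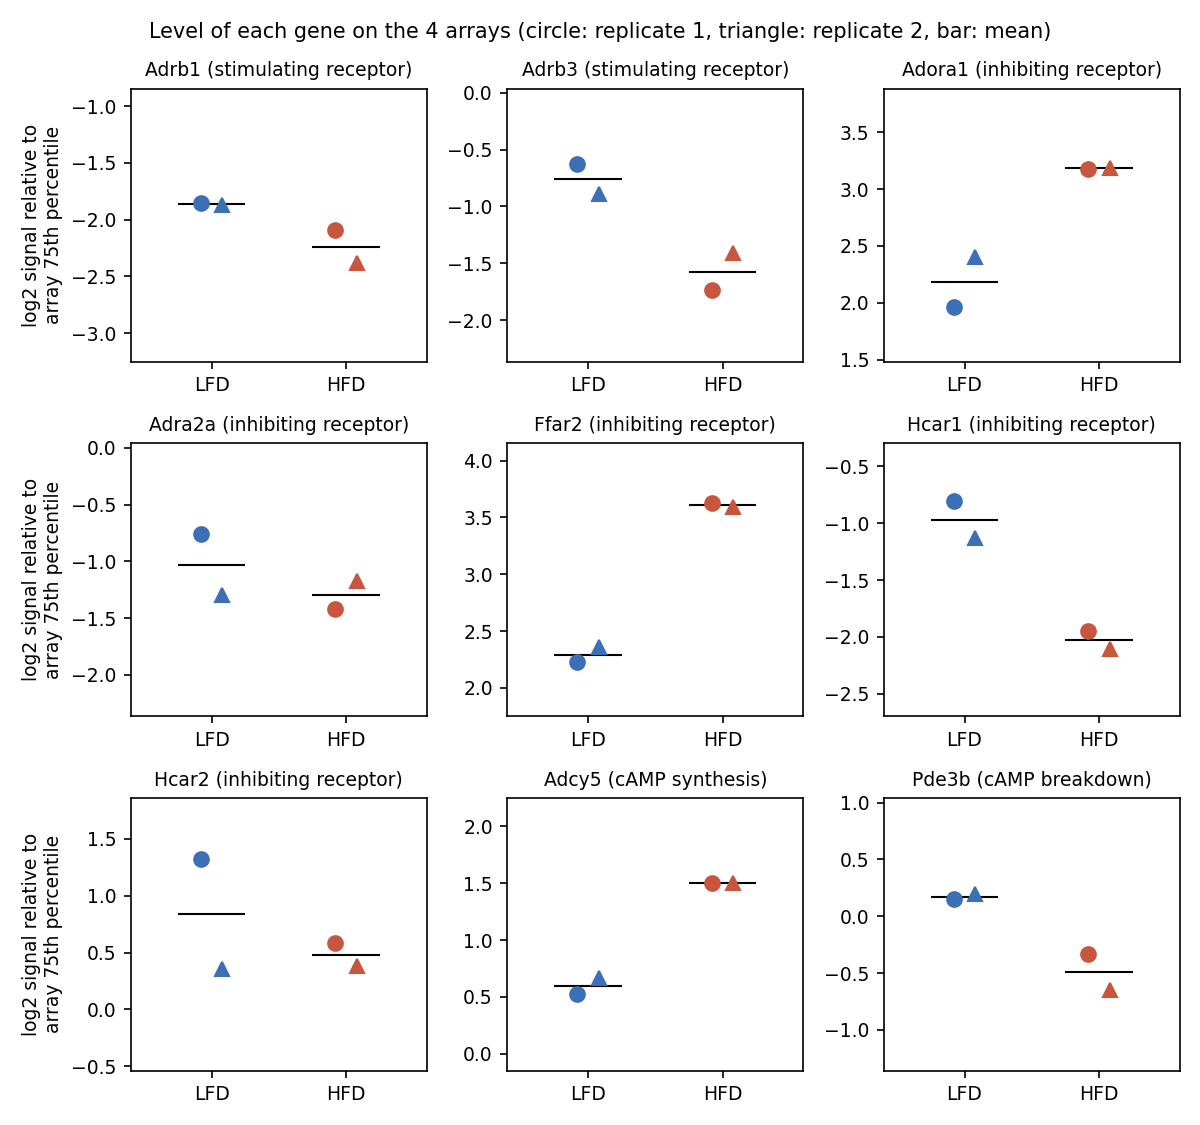
Level (vertical axis, log2 against the 75th percentile of the array) in LFD (blue) and HFD (red) for the probe that stands for each of the 9 genes, with replicate 1 as a circle, replicate 2 as a triangle and the mean of a diet as a bar. Every panel spans the same height in log2 units, around its own mean. Ffar2, Adora1 and Adcy5 stand higher on both HFD arrays, Adrb3, Hcar1, Pde3b and Adrb1 stand lower, and the diets overlap for Adra2a and Hcar2.

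Neither stimulating receptor passed the test. Adrb3 encodes the beta3-adrenergic receptor, the main beta receptor of rodent fat cells. A single probe read it, and since that probe skips bases of the genome, only Adrb3 RNA spliced at that point was measured. Other splice forms would not be seen, so the values below hold for RNA spliced there and not for all Adrb3 RNA. Which form was read was not tested. At this probe the level was -0.63 and -0.89 in LFD, and -1.74 and -1.41 in HFD. Both HFD arrays were below both LFD arrays, and the gap between diets was wider than the gap within either. The log2 change was -0.81 (SE 0.17, 95% interval -1.27 to -0.35, limma adjusted p = 0.0573), a 1.76-fold lower mean of HFD. The call lay close to the threshold: Adrb3 passed with probes well above background on all 4 arrays and with the trend and robust options, and in 2 of 10 alternatives in all, with adjusted p between 0.0223 and 0.181 in limma.

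Adrb1, the beta1-adrenergic receptor, was read by a pair of probes that did not go the same way. At the brighter probe, which starts at position 2353 of the transcript, the level was -1.86 and -1.87 in LFD and -2.09 and -2.38 in HFD. The log2 change there was -0.37 (SE 0.14, limma adjusted p = 0.144). At the dimmer probe, which starts at position 380, the level was -3.06 and -2.86 in LFD and -2.73 and -2.72 in HFD, higher on both HFD arrays, with a log2 change of 0.24 (SE 0.11, limma adjusted p = 0.218). The mean of both probes and normexp background correction brought the change of Adrb1 near 0, with -0.07 and -0.06.

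The inhibiting receptors went different ways. Ffar2, a receptor for short-chain fatty acids such as acetate, showed the largest change of the 9 genes. Its level was 2.23 and 2.36 in LFD and 3.63 and 3.59 in HFD. Replicates lay close together and the diets were far apart. Ffar2 was 2.49-fold higher in HFD (log2 change 1.32, SE 0.10, 95% interval 1.04 to 1.59, limma adjusted p = 0.0154). The call of Ffar2 was lost without HFD replicate 1 (log2 change 1.3, adjusted p = 0.0693) and without HFD replicate 2 (1.34, 0.0854).

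Promoter windows of RefSeq (build GRCm38.p6), cut here to the 250 bases before a start site, were found for 6 of the 9 genes, 10 windows in all. One of the 4 windows of Ffar2, the gene that changed most, is shown with its motif matches in capitals. The search covered both strands for TGACGTCA (the full cAMP response element), TGACG (its shorter form, which lies within it), AGGTCA (a nuclear receptor site), CACGTG (an E-box), CCAAT and TATAAA.
Ffar2 chr7:30823776-30824025, minus strand: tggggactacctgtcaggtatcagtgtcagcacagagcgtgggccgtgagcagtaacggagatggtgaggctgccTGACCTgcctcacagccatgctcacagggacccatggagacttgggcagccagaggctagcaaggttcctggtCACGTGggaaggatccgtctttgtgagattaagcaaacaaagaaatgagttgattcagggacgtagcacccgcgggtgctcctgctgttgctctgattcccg
This window holds TGACCT, which is AGGTCA on the other strand, 175 bases before the start and an E-box 102 bases before it. AGGTCA was in 3 of the 4 Ffar2 windows and in 14.0% of all 32851 windows. Some of these Ffar2 windows overlap and share the same AGGTCA site, so the windows are not separate sites. The E-box was in windows of Ffar2 and Adra2a and in 6.02% of all. The full cAMP response element was in 0 of the 10 windows of these genes and in 1.55% of all windows. Its shorter form was in the windows of Adra2a and Adrb1, against 17.8% of all. CCAAT was in those of Adrb1 and Ffar2 (33.8% of all) and TATAAA in that of Adra2a (12.4% of all). These are letter matches in a short window and say nothing of binding.

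Adora1, the adenosine A1 receptor, through which adenosine holds back lipolysis, was higher at each of its 3 probes. At the brightest the level was 1.96 and 2.40 in LFD and 3.18 and 3.19 in HFD. The HFD arrays were nearly equal and the LFD arrays differed. The log2 change was 1.0, a 2.00-fold rise (SE 0.18, 95% interval 0.52 to 1.48, limma adjusted p = 0.0439). At the probe closest to the 3′ end the level was 1.48 and 1.80 in LFD and 2.87 and 2.79 in HFD, a log2 change of 1.19 (adjusted p = 0.0251). The probe whose sequence is shown above, which was the dimmest, read -1.96 and -1.62 in LFD and -0.97 and -0.98 in HFD, a log2 change of 0.81 (adjusted p = 0.0460). All 3 Adora1 probes therefore passed and gave changes between 0.81 and 1.19. The call of the brightest probe was lost without LFD replicate 1 (0.78, 0.0622), without HFD replicate 1 (1.01, 0.146) and without HFD replicate 2 (1.0, 0.185).

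Hcar1, the lactate receptor of fat cells, through which lactate lowers cAMP, fell. Its level was -0.81 and -1.13 in LFD and -1.95 and -2.11 in HFD. Both HFD arrays were well below both LFD arrays. The log2 change was -1.06, 2.08-fold lower in HFD (SE 0.15, 95% interval -1.48 to -0.64, limma adjusted p = 0.0327). With normexp the log2 change of Hcar1 was smaller, -0.66, and passed (adjusted p = 0.0165). The call was lost without each array in turn: without LFD replicate 1 (-0.89, 0.0694), without LFD replicate 2 (-1.22, 0.0504), without HFD replicate 1 (-1.14, 0.0997) and without HFD replicate 2 (-0.98, 0.157). Its direction held in each.

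Hcar2, the receptor for niacin and the ketone body beta-hydroxybutyrate, lies beside Hcar1 on chromosome 5; 13460 bases separate their probes. It did not pass the test. Its level was 1.32 and 0.35 in LFD and 0.58 and 0.38 in HFD, so that LFD replicate 1 stood apart and the other 3 arrays lay together. The log2 change was -0.36 (SE 0.35, 95% interval -1.31 to 0.60, limma adjusted p = 0.507), and without LFD replicate 1 it was 0.13.

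Adra2a, the alpha2A-adrenergic receptor, through which catecholamines inhibit lipolysis, had 3 probes, and the diets overlapped at each. At the brightest the level was -0.76 and -1.30 in LFD and -1.42 and -1.18 in HFD, a log2 change of -0.27 (SE 0.22, 95% interval -0.87 to 0.33, limma adjusted p = 0.433). The neighbouring probe gave -0.23 and the dimmest, which was well above background on 1 of 2 HFD arrays, gave 0.31. Without LFD replicate 1 the change at the brightest probe was 0.00. A difference in Adra2a was thus not detectable with these arrays.

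**Figure D2:**
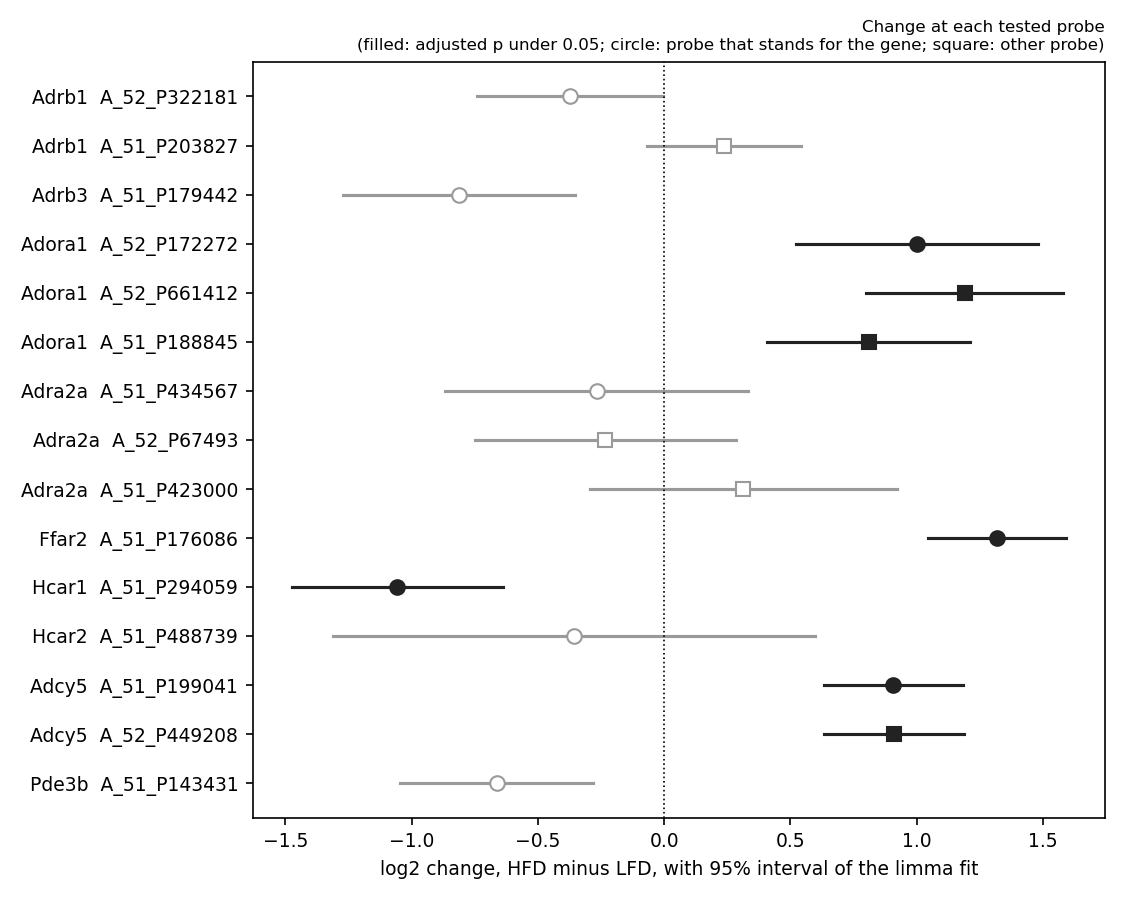
Log2 change of HFD minus LFD (horizontal axis) with its 95% interval in the limma fit, for the 15 tested probes of the 9 genes. Filled points passed the adjusted p of 0.05, circles are the probes that stand for a gene and squares the others. All 3 Adora1 probes and both Adcy5 probes lie right of 0, Ffar2 lies farthest right and Hcar1 left, while the Adrb1 and Adra2a probes fall on both sides of 0.

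Of the enzymes that make and break down cAMP, 1 passed the test. Adcy5, one of the adenylyl cyclases, which is inhibited by Gi and by calcium, rose at both probes. At the brighter, spliced probe the level was 0.53 and 0.67 in LFD and 1.51 and 1.5 in HFD. The adjoining probe read 0.29 and 0.42 in LFD and 1.29 and 1.24 in HFD. Each gave a log2 change of 0.91, which is 1.88-fold higher in HFD (SE 0.10 and limma adjusted p = 0.0232 at the brighter, 0.10 and 0.0231 at the other). The probes share a transcript and are no replicates of the diets. The call was lost without LFD replicate 1 (0.84, 0.0582), without HFD replicate 1 (0.91, 0.0990) and without HFD replicate 2 (0.91, 0.133).

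Pde3b encodes the phosphodiesterase through which insulin lowers cAMP in fat cells. Its level was 0.15 and 0.19 in LFD and -0.33 and -0.65 in HFD, lower on both HFD arrays, yet it did not pass: the log2 change was -0.66 (SE 0.14, 95% interval -1.05 to -0.28, limma adjusted p = 0.0594). It passed as lower in 4 of 10 alternatives, among them normexp (-0.43, adjusted p = 0.0434) and median scaling (-0.75, 0.0499). The probe on the opposite strand was not well above background on any array, so these values come from the sense probe only. Neither Adrb3 nor Pde3b passed without any 1 of the arrays, where Adrb3 had log2 changes of -0.98 to -0.65 and Pde3b of -0.82 to -0.51.

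**Figure D3:**
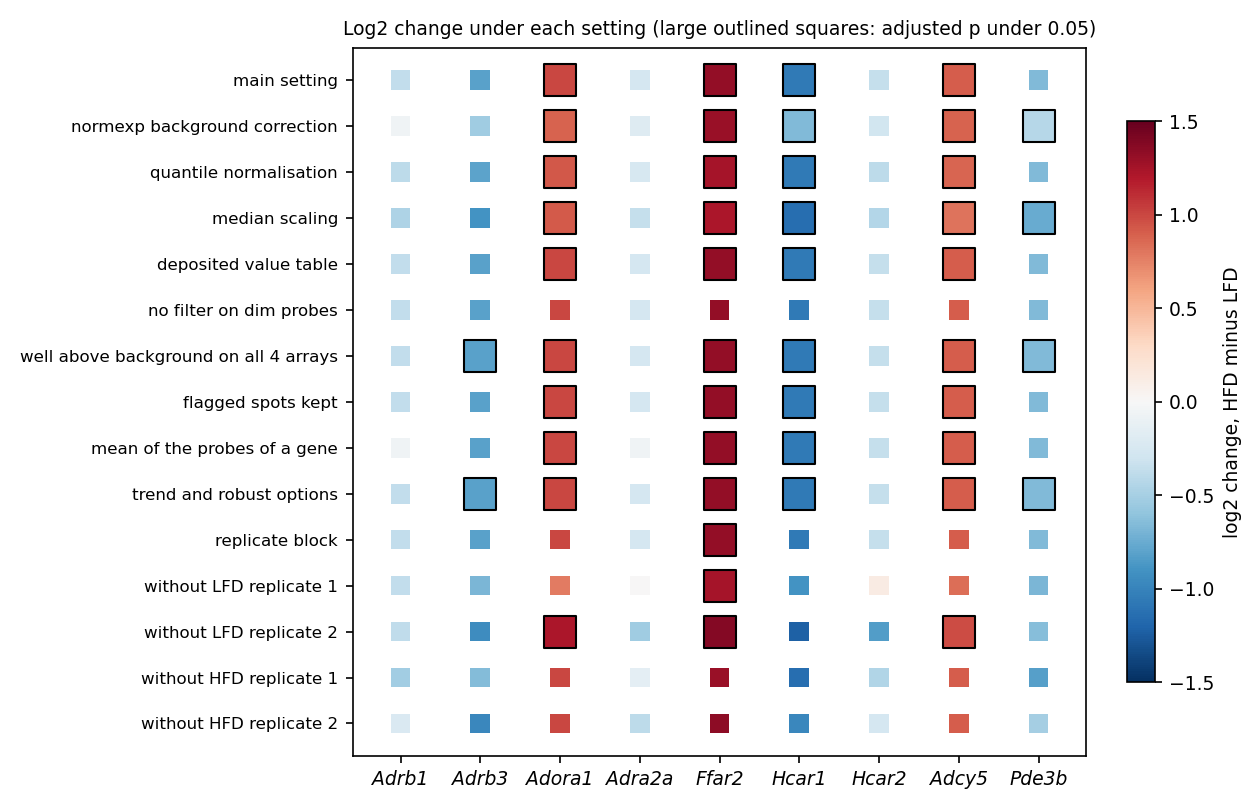
Log2 change of HFD minus LFD (colour) for the 9 genes (columns) in the main setting and under each of 14 alternatives (lines of squares); large outlined squares have an adjusted p under 0.05. Ffar2, Adora1 and Adcy5 are red and Adrb3, Hcar1 and Pde3b blue on every line, while the outlines of the calls thin out in the lower lines, where arrays are left out.

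The other genes of the pathway were taken from 9 lists of 132 genes, grouped by role. Of these 113 were tested, 12 were higher and 8 lower in HFD, and 93 did not pass (median log2 change 0.02, equal to that of all tested genes to that precision). Shares of 12 and 8 of 113 stand beside backgrounds of 5.74% and 5.61%. Among the 8 lower genes, Npy1r, Adcy10, Akap5, Slc6a2 and Dio2 entered the test through their LFD signals only. Their signals failed the background test on 1 or both HFD arrays, so the count of lower genes rests partly on dim signals. Without LFD replicate 1 there were 1 higher and 7 lower, without LFD replicate 2 there were 4 and 6, and without either HFD replicate 0 and 0 in limma (19 and 16 genes had an unadjusted p under 0.05 without HFD replicate 1, 20 and 17 without HFD replicate 2).

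Among 14 other Gs-coupled receptors 1 rose and none fell: Ptger2, a receptor for prostaglandin E2, was 2.14-fold higher (level -2.57 and -2.69 in LFD, -1.40 and -1.66 in HFD, limma adjusted p = 0.0251). Among 8 other Gi-coupled receptors Npy1r, a receptor for neuropeptide Y, was called lower, but on both HFD arrays it stayed near background. Its fall was at least 1.09-fold, with no bound above 1 without LFD replicate 1, and with normexp its log2 change was 0.01 (adjusted p = 0.959). For such a bound the dim diet's level on each array was raised, where it was lower, to that of the dimmest probe that passed the background test there.

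Of 15 tested G proteins and proteins of receptor desensitisation 1 rose. This was Arrb1, beta-arrestin 1, which uncouples activated receptors, at 1.42-fold (log2 change 0.50, SE 0.09, limma adjusted p = 0.0459; both probes passed). Gnas, the Gs alpha subunit, had a log2 change of -0.13 and Gnai1, an inhibiting alpha subunit, 0.00, with probes of both signs for each.

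Of 7 other adenylyl cyclases only Adcy10, the soluble cyclase, was called, and it was lower. Its level was -2.10 and -0.31 in LFD, far apart, and its signal failed the background test on both HFD arrays. It was tested through its LFD signals only, and its fall was at least 5.87-fold. The limma adjusted p of 0.0409 sets LFD against HFD signals at background and does not measure this bound. The bound was 10.9-fold without LFD replicate 1 and 3.15-fold without LFD replicate 2. With normexp it did not pass (log2 change -1.69, adjusted p = 0.0575). Adcy6 had a log2 change of 0.07 and Adcy3 of 0.28, neither of which passed (adjusted p = 0.686 and 0.149). The largest rise of the list, that of Adcy7, singled out after its values were seen, did not pass either (log2 change 1.17, limma adjusted p = 0.0532), and it passed in 3 of 10 alternatives.

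The phosphodiesterases that break down cAMP went both ways, with 3 of 10 higher and 1 lower. Pde7a was 2.35-fold, Pde2a, which cGMP stimulates, 1.91-fold and Pde1b, which calcium and calmodulin activate, 1.88-fold higher (limma adjusted p = 0.0474, 0.0198 and 0.0437). Of the 2 Pde2a probes 1 passed, and the other had a log2 change of 0.54. Pde1a, also activated by calcium and calmodulin, was 2.02-fold lower, with all 4 probes called (level 2.17 and 2.30 in LFD, 1.2 and 1.23 in HFD, adjusted p = 0.0204). Pde4d had a log2 change of -0.16 at its brightest probe (limma adjusted p = 0.443). Its 4 tested probes had both signs, from -0.89 to 0.47, and 1 of them passed as lower.

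Among 19 genes of protein kinase A, its anchors and Epac, 2 rose and 1 fell. Those that rose were Pkib (3.93-fold, level -3.34 and -4.08 in LFD, -1.66 and -1.81 in HFD, limma adjusted p = 0.0308) and Pkia (1.64-fold, 0.0306), which encode inhibitors of the kinase. Pkib was dim in LFD, and 1 of its 4 probes was tested. Its log2 change was 1.97, and 1.26 with normexp. Akap5, an anchoring protein, fell (adjusted p = 0.0181), with 1 of 2 HFD arrays above background. The difference was 2.24-fold as measured and 1.94-fold with HFD signals raised to the background floor, a step added after seeing the data, and the log2 change was -0.48 with normexp. The kinase's catalytic subunit Prkaca had a log2 change of -0.07, and Prkar2b, the regulatory subunit abundant in fat cells, 0.54 (SE 0.13, limma adjusted p = 0.0689).

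None of the 9 genes of the lipolysis machinery passed in limma, where 3 had an unadjusted p under 0.05. Pnpla2, which encodes adipose triglyceride lipase, was at -0.38 on the log2 scale of HFD minus LFD (SE 0.11, adjusted p = 0.104). Lipe, hormone-sensitive lipase, had -0.14 (SE 0.17, 0.571) and Plin1, perilipin 1, had -0.03 (SE 0.13, 0.903). The list's largest changes, singled out after their values were seen, went opposite ways: 0.75 for Aqp7, a glycerol channel (adjusted p = 0.0652, passing in 3 of 10 alternatives), and -0.69 for G0s2, an inhibitor of adipose triglyceride lipase (0.0954).

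Genes that supply or clear the receptors' ligands had 4 of 17 higher and 1 lower. Maoa, which degrades noradrenaline, was 2.10-fold higher (level 2.14 and 2.38 in LFD, 3.30 and 3.36 in HFD, limma adjusted p = 0.0239). Slc16a3, a monocarboxylate transporter that exports lactate, was 2.02-fold higher (adjusted p = 0.0179) and Ada, which breaks down adenosine, 1.85-fold (adjusted p = 0.0333). Dbh, which makes noradrenaline, was 1.82-fold higher from a dim signal (adjusted p = 0.0382, and 0.0544 with normexp, where it did not pass). Slc6a2, the noradrenaline transporter of sympathetic nerves, was lower (level -1.50 and -2.32 in LFD, -3.62 and -3.77 in HFD, adjusted p = 0.0408), with 1 of 2 HFD arrays above background. The difference was 3.46-fold as measured and 2.82-fold with HFD signals raised to the same floor, and the log2 change was -0.80 with normexp. Th, the first enzyme of catecholamine synthesis, was too dim to test.

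Among 14 genes of CREB and its cAMP-responsive targets 1 rose and 3 fell. Crem, a cAMP-responsive modulator, was 1.54-fold higher with 4 of 5 probes called (limma adjusted p = 0.0338). The coactivator Ppargc1a, the deiodinase Dio2 and the uncoupling protein Ucp1, all genes of thermogenic fat, were the 3 that fell. They fell by 1.05, 1.76 and 5.01 on the log2 scale (limma adjusted p = 0.0172, 0.0299 and 0.0371). Of the 2 Ppargc1a probes 1 passed, and the other had a log2 change of -0.86. Dio2 was well above background on 1 of 2 HFD arrays (3.05-fold lower with HFD signals raised to the floor), and the log2 change of Ucp1 was -3.87 without LFD replicate 1 and -6.15 without LFD replicate 2.

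**Figure D4:**
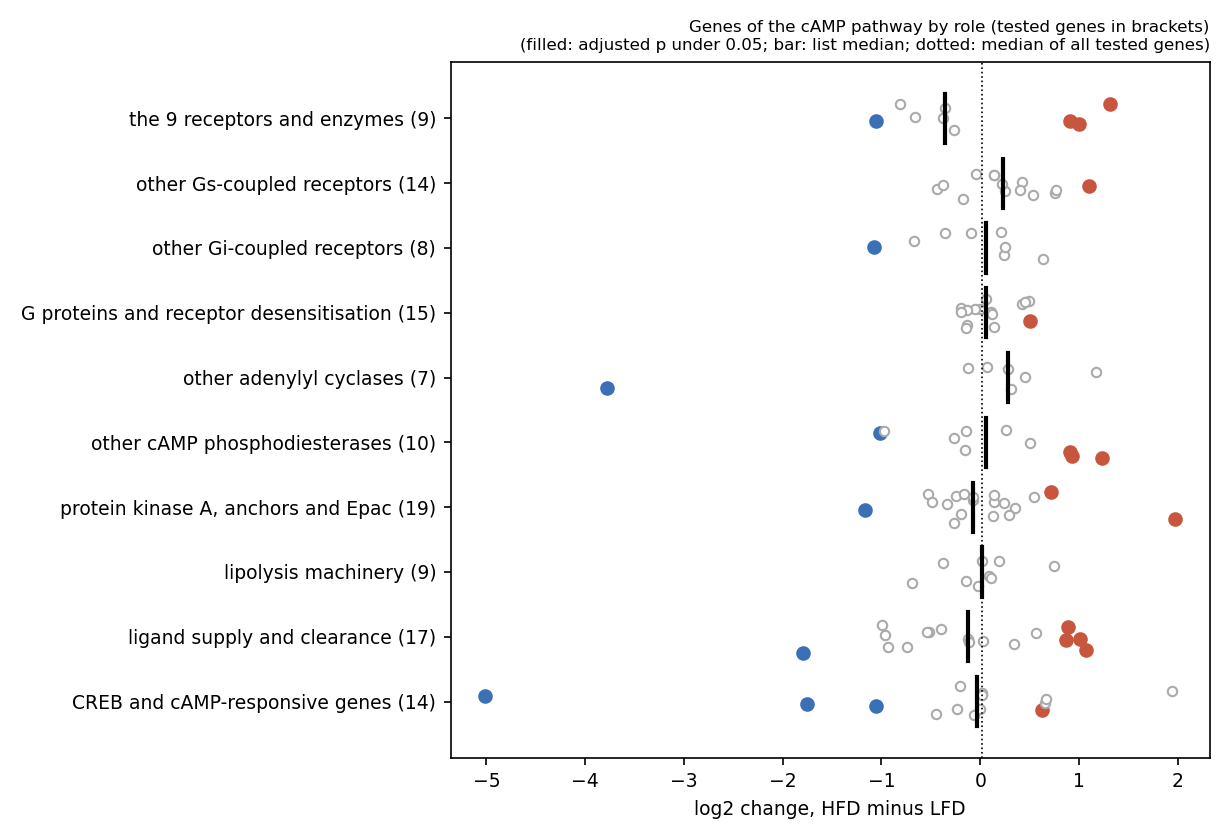
Log2 change of HFD minus LFD (horizontal axis) of the 9 receptors and enzymes and of the other tested pathway genes, 1 point per gene, by list; points are jittered vertically. Filled red points were called higher and filled blue points lower, thick bars are list medians, and the dotted line is the median of all tested genes. The lipolysis machinery holds 0 filled points, and the phosphodiesterases have filled points on both sides.

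Marker genes of some cell types also differed between the diets. Ucp1, Dio2, Dbh, Th, Lipe, Plin1, Fabp4 and Cidec are in both a pathway list and a marker list, so the counts of these lists overlap. Whether the cell makeup differed, and its part in the values above, was not tested. Summed linear signals of each marker list are given, relative to the array's 75th percentile. A sum weighs the brightest genes of its list most, so that a change of a dimmer gene can be hidden in it. The 10 fat cell markers summed to 1479 and 1605 in LFD and 1419 and 1526 in HFD, ranges that overlap, and 1 of the 10, Retn, was lower in limma. Adipoq had a log2 change of -0.32, Lep of 2.18 and Cidec of 0.09, and none of the 3 passed (adjusted p = 0.119, 0.0729 and 0.614). The change of Lep was 1.43 without LFD replicate 1 and 2.93 without LFD replicate 2. All 10 were well above background on every array, so the defining markers of the labelled tissue were present.

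Macrophage markers summed to 181 and 163 in LFD and 249 and 265 in HFD, with 4 of 8 higher, among them Cd68 (4.87-fold), Adgre1 (3.13-fold) and Csf1r (1.75-fold). Neutrophil markers summed to 1.0 and 0.868 in LFD and 2.30 and 2.33 in HFD, with 2 of 5 tested higher, S100a8 and Csf3r (11.4-fold and 1.86-fold), S100a9 at a log2 change of 0.30 (adjusted p = 0.286) and Cxcr2, Elane and Camp too dim to test. Ffar2 and Hcar2 are also known from neutrophils and macrophages; the part of these cells in the rise of Ffar2 was not tested.

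Brown and beige fat markers, in which beta-adrenergic receptors are also abundant, summed to 133 and 54.5 in LFD and 13.9 and 18.8 in HFD. Of 7 tested, 3 were lower (Ucp1, Cidea and Dio2), and Ppara had a log2 change of -1.35 (adjusted p = 0.0555). Mesothelium markers summed to 26.1 and 27.3 in LFD and 10.7 and 8.54 in HFD, with all 7 lower, among them Msln, Upk3b and Wt1 (1.98-fold, 3.36-fold and 2.80-fold). At the probes that stand for them, Hcar2, Hcar1, Adrb3, Adra2a and, narrowly, Adrb1 were highest on LFD replicate 1. That array also had the highest sum of brown fat markers and of lymphocyte markers (6.38 against 1.34 to 2.38 on the other arrays). Lymphocyte markers had 0 of 6 called in limma (1 with an unadjusted p under 0.05), with log2 changes of -1.46 for Ms4a1 and 0.38 for Cd79a. That of Ms4a1 was 0.14 without LFD replicate 1 and -3.06 without LFD replicate 2.

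Endothelial markers summed to 27.4 and 26.7 in LFD and 22.3 and 24.1 in HFD. None of the 5 was called in limma, although 2 had an unadjusted p under 0.05; Pecam1, Cdh5 and Kdr had log2 changes of 0.19, 0.09 and -0.36. Smooth muscle and pericyte markers summed to 76.8 and 54.7 in LFD and 66.5 and 65.6 in HFD, with 0 of 5 called in limma and 0 with an unadjusted p under 0.05 (Acta2 0.13, Myh11 -0.69 and Rgs5 0.17). Nerve and Schwann cell markers summed to 0.597 and 0.600 in LFD and 0.395 and 0.350 in HFD. Of 5 tested 1 was higher, Dbh, and 1 lower, Snap25 had a log2 change of 0.38, and Th was too dim to test. Mammary epithelium markers summed to 7.57 and 8.00 in LFD and 1.44 and 1.29 in HFD, with Krt5 (10.8-fold) and Krt18 (6.58-fold) lower and Krt14 at a log2 change of 0.26 (adjusted p = 0.433).

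**Figure D5:**
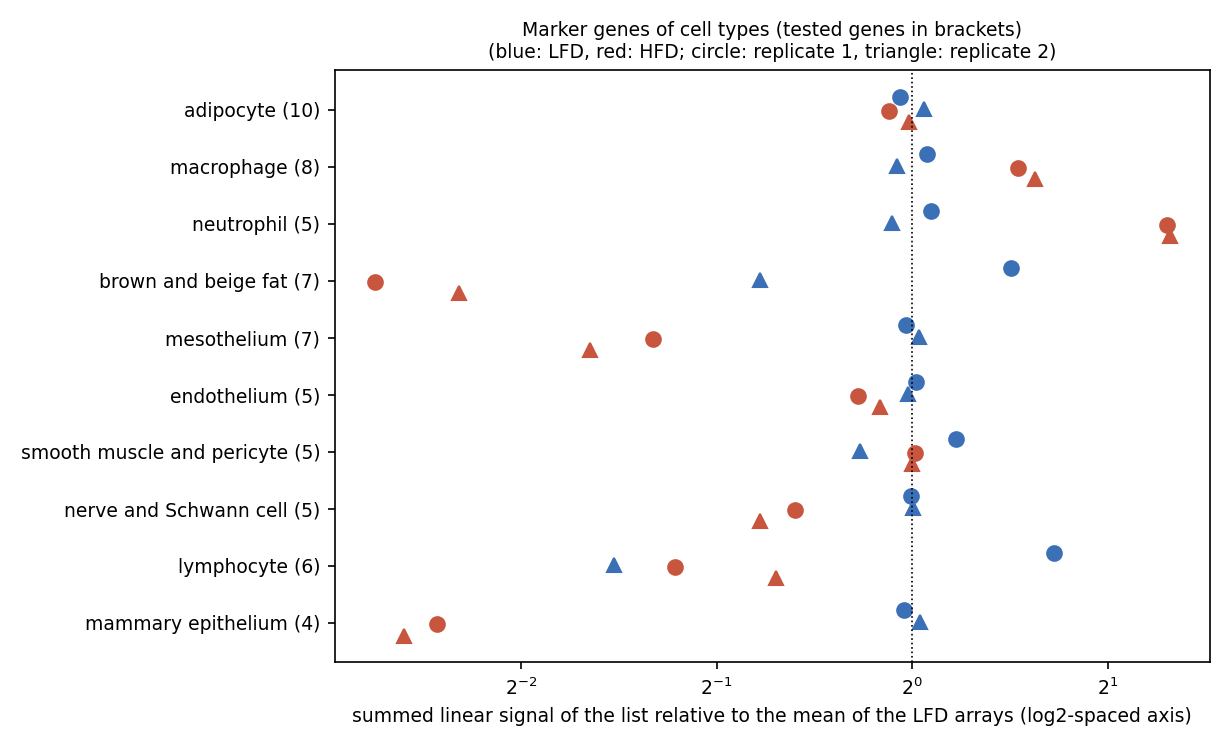
Summed linear signal of each marker list on each array, divided by the mean of the LFD arrays (horizontal axis, spaced by log2), with LFD in blue, HFD in red, replicate 1 as circles and replicate 2 as triangles. Fat cell markers lie near 1 on all 4 arrays, macrophage and neutrophil markers lie to the right in HFD, brown fat and mesothelium markers lie to the left, and the LFD arrays are far apart for brown fat and lymphocytes.

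Genes with the most similar pattern over the 4 arrays were sought for the 4 called members among 14779 genes well above background on all arrays, by the distance between log2 levels centred on their mean. With 4 arrays close matches are common: 41 genes lay within 0.2 of Ffar2, 70 of Adora1, 45 of Hcar1 and 171 of Adcy5. The nearest to Ffar2 were Dok1, Ptpre and a transcript listed as NAP057003-1 (distances 0.079, 0.086 and 0.086). Elavl3, Thbs2 and Fam89a were nearest to Adora1 (0.046, 0.069 and 0.076). For Hcar1 they were Agbl3, 4930581F22Rik and AK044029 (0.027, 0.070 and 0.100), and for Adcy5 Prkch, Ephx1 and Il12a (0.022, 0.038 and 0.051).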

How the data were processed

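RNA of white fat (500 ng labelled per sample, per the labels) was read on 4 one-colour arrays sharing 1 slide and 1 scan, per the file headers. The authors deposited each spot's brightness as a linear intensity, from which Feature Extraction had subtracted background and spatial trend, per the file headers (which name version 11.0.1.1, while the submitters' processing notes name 11.5.1.1). The value table that the authors deposited is a ratio: each processed signal divided by the 75th percentile of its array. This was found by setting it against the scanner values. Its columns have medians of 0.117, 0.127, 0.130 and 0.131, and it is linear, uncentred and rises with signal. Other columns used were the authors' deposited flags for background and outlier spots.

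Levels were log2 processed signals less the 75th percentile of the array. Outlier spots (60 to 115 per array) were dropped, spots of a probe were averaged, and no spot was saturated. Symbols came from a RefSeq table by transcript accession (27668 probes) or from the files (13506). Tests ran on probes that both arrays of either diet showed well above background, in limma 3.58.1 (lmFit, then eBayes; two-sided; 2 residual and 2.24 prior degrees of freedom) under R 4.3.3, and the code was checked on simulated data. Each gene was represented by its brightest tested probe, by mean signal. The number of arrays limits the precision.

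The 9 genes, the lists and the tests were chosen with earlier results of these data known. Named are all 9 with every probe, up to 4 called genes of smallest p per pathway list, pathway genes fixed by name, the first 3 genes of each marker list, and the 3 nearest patterns; Retn, Dio2, Elane, Cxcr2, Camp, Ppara and Th are named beside counts. A few of the genes so chosen are not reported here. As alternatives served normexp (offset 50), quantile or median scaling, the value table, looser and stricter filters on dim probes, outlier spots kept, probe means, trend and robust eBayes, replicate number as a block, and single arrays left out while testing the same probes.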

Additional observations from a re-analysis of the deposited data

How the results depend on the processing

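Over 10 alternatives that kept all 4 arrays, the direction of all 9 genes held. Ffar2 passed in 9 of them, and Adora1, Hcar1 and Adcy5 in 8 each. Among the 9 genes 3 were higher and 1 lower; the lower count was 2 with normexp (Hcar1 and Pde3b) and with median scaling, and 3 with probes well above background on all 4 arrays and with the trend and robust options (Hcar1, Adrb3 and Pde3b). With no filter on dim probes 0 and 0 of the 9 genes, 0 and 0 of all genes and 0 and 0 of the pathway genes passed in limma. There 3 and 3 of the 9 and 28 and 19 pathway genes had an unadjusted p under 0.05, and the adjusted p was 0.107 for Ffar2, 0.118 for Adcy5, 0.133 for Hcar1 and 0.153 for Adora1. More probes entered that fit, and the median log2 change of all genes was 0.20, against 0.02 in the main setting. Negative control spots averaged 73.9 and 95.6 in LFD and 106 and 116 in HFD. Whether the small rises at the dimmer Adrb1 probe, the dimmest Adra2a probe and Dbh share in this shift was not tested. The cause was not tested further.

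Over all genes, 1618 were higher with normexp, 1598 with the filter on all 4 arrays, and 1826 higher and 1808 lower with the trend and robust options. Of the pathway genes 20 were higher with the filter on all 4 arrays, 18 with normexp, and 22 higher and 17 lower with the trend and robust options, while 14 were lower with quantile normalisation and 13 with median scaling. The cause was not tested.

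Across the tested probes, arrays of the same replicate number did not deviate together (correlation of deviations -0.0046). This single value gave no sign of pairing but cannot settle it for every gene. Some genes could still be paired by that number. With it as a replicate block 1 and 0 of the 9 genes passed (Ffar2, adjusted p = 0.0490; 3 and 3 had an unadjusted p under 0.05), 220 and 208 of all genes, and 1 and 0 of the pathway genes (28 and 23 unadjusted). Adora1 then had an adjusted p of 0.0693, Hcar1 0.0545 and Adcy5 0.0576. A block for the slide could not be fitted, since there was only 1 slide.

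Leaving out each array in turn left 0 to 3 of the 9 genes higher and 0 to 0 lower, 9 to 470 of all genes higher and 9 to 341 lower, and 0 to 4 pathway genes higher and 0 to 7 lower. The lone array of a diet is then assumed to vary like the other diet. The log2 change of Adra2a ran from -0.54 to 0.00080 and that of Hcar2 from -0.84 to 0.13, with the sign turned without LFD replicate 1 in each; neither had passed. Among the other named genes, none of them called, the sign also turned with an array left out for Acta2, Adcy6, Cdh5, Cidec, Gnai1, Krt14, Lipe, Ms4a1 and Plin1. Signal over background limits the dimmest probes: that of Pde3b on the opposite strand could not be tested. Falls of Npy1r, Adcy10, Akap5, Slc6a2 and Dio2 rest on HFD signals near background. Rises of Pkib and Dbh start from dim LFD signals.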
